A study of Mus musculus with 9 samples.

Results

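Among the genes that were lower in brain myeloid cells after inhibition of the receptor CSF1R, 7 are described here: Bank1, Tmem44, Zfp697, Sema4b, Armc3, Csmd3 and Khdrbs3. They were chosen by their low levels under CSF1R inhibition in these same libraries, as little-studied genes with large falls, so that their levels against the untreated mice are a description and not a test. They are 7 of the 31053 genes counted, and all 7 passed the filter on low counts. CSF1R is the receptor through which CSF1 and IL-34 keep microglia, the resident macrophages of the brain parenchyma, alive. PLX5622 (PLX) blocks its kinase, most microglia are then lost, and the brain fills with new microglia once the drug is withdrawn.

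The mice were 5-month-old C57BL/6 females (C57BL/6J in the study's methods). Ctrl mice were naïve, D0 mice had been fed PLX over 14 days, with 1200 mg in each kg of chow, and D2 mice had the same course and then 2 days of control diet. Live CD11b+ cells were sorted from whole brain without cerebellum and profiled with the 10x Genomics 3′ single-cell kit, in 3 libraries a group. A Ctrl library came from 1 mouse, whereas 2 brains were pooled for a library of D0 or D2. CD11b is carried by all myeloid cells, so that the sort does not tell microglia from other macrophages, and the cells that outlasted the drug cannot be told apart from their early progeny.

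Each library held between 20257894 and 61230741 UMIs (unique molecular identifiers, which count a captured transcript once), with medians of 4810 to 9243 UMIs per kept cell. The 8 libraries used gave 28655 cells, of which 25799 were myeloid by their clusters. Library D2-3, which the study left out, stood apart: 128 of its 1445 myeloid cells were microglia-like and not dividing, 561 were dividing microglia-like and 541 were monocyte-like, and the 10 microglia markers summed to 4779 CPM (a gene's UMIs scaled to a common library total) in it, against 13443 and 14029 in D2-1 and D2-2. It is kept out of the means and the fits, and its values are given beside them. Pairs of libraries shared at most 7 cell barcodes.

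The 7 genes have unlike roles. Bank1 encodes a scaffold protein that is best known in B cells, where it links the antigen receptor to the kinase LYN and to calcium release through inositol trisphosphate receptors. Sema4b encodes a transmembrane semaphorin of class 4, a family of guidance ligands that signal through plexins. Csmd3 encodes a very large membrane protein built of CUB and sushi domains. Khdrbs3 encodes an RNA-binding protein of the STAR family that regulates alternative splicing in neurons. Armc3 encodes a protein with armadillo repeats, Zfp697 a zinc finger protein and Tmem44 a protein that spans the membrane several times, and what these 3 do in macrophages is not established.

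By GENCODE vM21 on GRCm38, the build of the files, the genes lie apart on 5 chromosomes. Bank1 (ENSMUSG00000037922) is at chr3:136053363-136326066 on the minus strand, with 17 exons and a coding sequence of 783 codons in its longest coding transcript. Zfp697 (ENSMUSG00000050064) is on the same chromosome at chr3:98382461-98753812, plus strand, with 569 codons in 3 exons, and 13 genes of the other strand lie within its span. Sema4b (ENSMUSG00000030539) is at chr7:80186841-80226527, plus strand, with 823 codons in 15 exons. Tmem44 (ENSMUSG00000022537) is at chr16:30511855-30550842, minus strand, with 433 codons in 10 exons. Armc3 (ENSMUSG00000037683) is at chr2:19199302-19310241, plus strand, with 881 codons in 20 exons. Csmd3 (ENSMUSG00000022311) is at chr15:47580637-48792063, minus strand, where 3707 codons in 71 exons are spread over 1211 kb. Khdrbs3 (ENSMUSG00000022332) is on the same chromosome at chr15:68928420-69101211, plus strand, with 346 codons in 10 exons. No other gene of the count tables overlaps a member on its own strand.

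RefSeq start-site windows of GRCm38.p6 were at hand for 5 of the 7 genes. The 250 bases before the start are shown for 4 of them, since these genes were low together after PLX and their upstream letters can be compared. Capitals mark GAGGAA (a core of binding sites of the macrophage factor PU.1) and GGGCGG (a GC box), on either strand.
Bank1, chr3:136326067-136326316, minus strand: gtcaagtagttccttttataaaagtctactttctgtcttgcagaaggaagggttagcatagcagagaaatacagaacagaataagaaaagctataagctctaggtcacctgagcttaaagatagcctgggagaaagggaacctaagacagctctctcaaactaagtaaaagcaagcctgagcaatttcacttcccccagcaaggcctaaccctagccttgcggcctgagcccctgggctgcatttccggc
Zfp697, chr3:98382231-98382480, plus strand: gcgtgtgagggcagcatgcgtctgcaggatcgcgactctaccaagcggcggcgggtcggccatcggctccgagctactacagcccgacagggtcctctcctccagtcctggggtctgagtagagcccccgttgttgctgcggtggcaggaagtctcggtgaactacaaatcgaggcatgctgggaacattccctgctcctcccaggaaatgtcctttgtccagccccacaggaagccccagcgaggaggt
Sema4b, chr7:80186620-80186869, plus strand: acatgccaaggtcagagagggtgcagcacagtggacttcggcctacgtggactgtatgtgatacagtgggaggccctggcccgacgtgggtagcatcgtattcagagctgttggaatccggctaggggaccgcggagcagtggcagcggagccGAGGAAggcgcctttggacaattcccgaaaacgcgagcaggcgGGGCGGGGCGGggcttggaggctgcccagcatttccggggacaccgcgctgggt
Armc3, chr2:19198868-19199117, plus strand: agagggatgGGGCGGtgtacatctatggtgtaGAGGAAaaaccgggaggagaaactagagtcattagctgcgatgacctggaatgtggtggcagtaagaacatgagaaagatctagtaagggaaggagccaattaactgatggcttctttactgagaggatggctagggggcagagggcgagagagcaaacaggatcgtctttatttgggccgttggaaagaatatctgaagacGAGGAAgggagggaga
The windows had little in common. GAGGAA occurred in the windows of Sema4b, Armc3 and Tmem44 and in neither of the others, and 23.3% of all 32851 RefSeq windows of this length hold it. GGGCGG occurred in those of Sema4b and Armc3, against 32.7% of all windows. The AP-1 motif TGANTCA (6.75% of all windows) and the cyclic AMP response motif TGACGTCA (1.55%) were in none of the 5 genes' windows. Both strands were searched, and a match or its absence describes letters only. The GC content was 46.4% for Bank1 and 49.2% for Armc3, below the median of all windows (52.4%). It was 62.8% for Zfp697, 64.4% for the Sema4b window shown and 66.0% for Tmem44, above the median. A second Sema4b window (chr7:80198338-80198587, not shown) also held GAGGAA and GGGCGG, with a GC content of 72.4%. All 250 bases of the Tmem44 window (chr16:30550579-30550828) lie in GENCODE exons of the gene, so that they are not upstream of its GENCODE start.

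In the untreated brain, microglia-like cells held all 7 transcripts, at 28.0 to 147 CPM. Levels are given over the cells of 1 class in a library, and classes were drawn from clusters made without the 7 genes. Csmd3 was the most abundant (172, 132 and 137 CPM in Ctrl-1, Ctrl-2 and Ctrl-3) and Khdrbs3 the next (96.8, 100 and 92.3 CPM), followed by Bank1 (82.6, 83.6 and 82.9 CPM). Zfp697 was at 27.8, 41.6 and 39.7 CPM, Sema4b at 30.4, 33.5 and 34.1 CPM, Tmem44 at 27.5, 30.6 and 25.8 CPM and Armc3 at 23.8, 30.6 and 29.7 CPM. The kit counts 3′ ends, so that these levels are not divided by transcript length. The ranges of Csmd3, Khdrbs3 and Bank1 did not overlap one another or those of the other 4 genes, whereas the ranges of Zfp697, Sema4b, Tmem44 and Armc3 all met in the region of 30 CPM. Bank1 was the steadiest of the 7, its 3 Ctrl libraries lying within 1 CPM of 83.0.

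**Figure D1:**
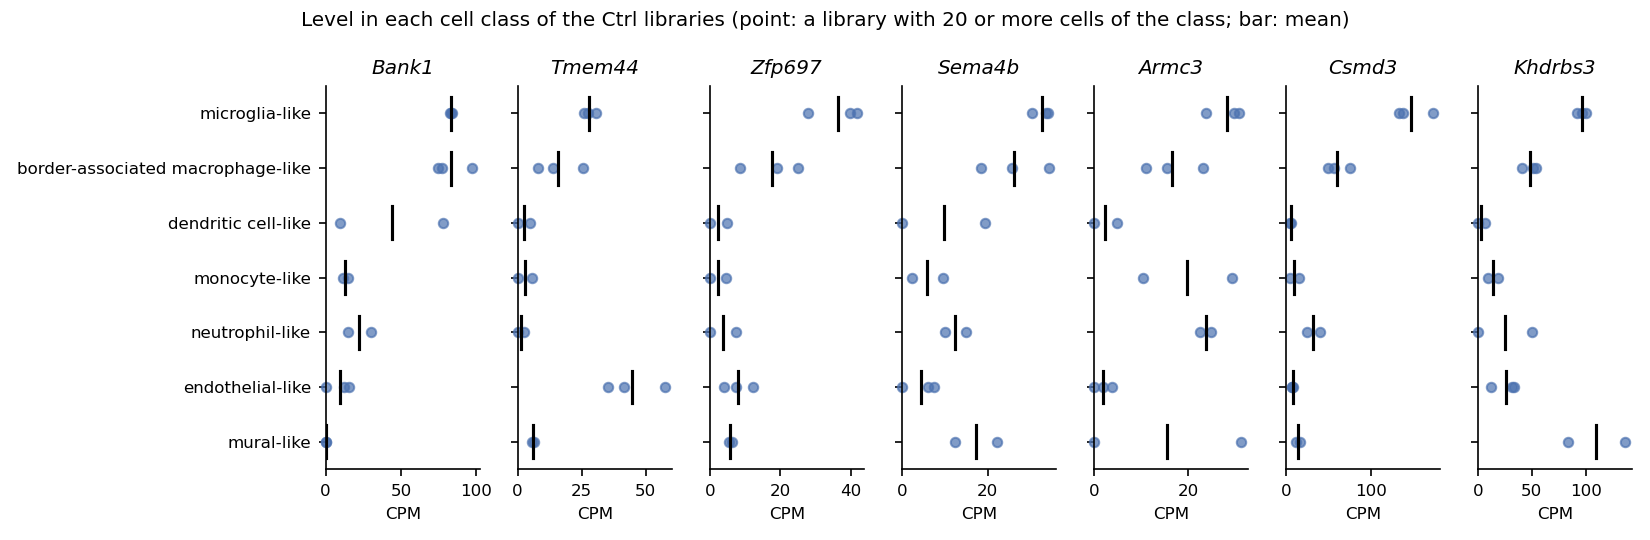
Level of each gene (x axis, CPM) in 7 cell classes of the Ctrl libraries, each point a library with at least 20 cells of the class and each bar their mean. All 7 genes are seen in microglia-like cells, Bank1 is as high in border-associated macrophage-like cells (83.0 CPM in both), and Tmem44 (44.7 CPM in endothelial-like cells) and Khdrbs3 (110 CPM in mural-like cells) are also high outside the myeloid cells.

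Border-associated macrophages line the meninges and vessels and also depend on CSF1R. In Ctrl brains 5 of the 7 genes were lower in border-associated macrophage-like than in microglia-like cells of the same libraries (edgeR with the library as a block, adjusted over 11377 genes, of which 7.11% were called lower and 11.3% higher in the macrophage-like cells). Csmd3 was at 49.8, 56.4 and 75.0 CPM in the macrophage-like cells, a log2 fold of -1.17 (95% interval -1.46 to -0.87, adjusted p = 9.45e-06). Khdrbs3 was at 41.3, 53.9 and 50.7 CPM, a log2 fold of -0.88 (-1.14 to -0.62, adjusted p = 5.18e-05). Each macrophage-like value of both genes lay below each microglia-like one. Zfp697 differed by -0.95 (-1.34 to -0.56, adjusted p = 0.00146), Tmem44 by -0.85 (-1.33 to -0.36, adjusted p = 0.0144) and Armc3 by -0.63 (-1.02 to -0.23, adjusted p = 0.0265). Bank1 was not called: its macrophage-like values were 74.7, 76.9 and 97.4 CPM, on both sides of the microglia-like ones, with a log2 fold of 0.12 (-0.11 to 0.36, adjusted p = 0.526). Nor was Sema4b, at 18.4, 25.6 and 34.2 CPM, with -0.21 (-0.56 to 0.13, adjusted p = 0.436). The calls of Tmem44 and Armc3 were lost without Ctrl-1 (adjusted p = 0.160 and 0.163), and that of Armc3 also without Ctrl-2 (0.0634). Border-associated macrophage-like cells of the 8 libraries used also held the 10 microglia markers, at a summed 13845 CPM, against 21808 CPM in microglia-like cells. Whether microglial RNA or microglia within this class bear on these folds, or on the like level of Bank1, was not tested. Most myeloid cells of Ctrl are microglia-like, so that a choice by the fall in myeloid cells favours genes that are high in them.

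Dendritic cell-like and monocyte-like cells held little of most members. In the dendritic cell-like cells of Ctrl, 60 cells in all, Bank1 gave 28 UMIs (42.8 CPM, 95% Poisson interval 28.4 to 61.8) but was uneven, at 9.54 CPM in Ctrl-1, 66.6 CPM in Ctrl-2 and 78.1 CPM in Ctrl-3, where 14.3% of 21 cells carried its 16 UMIs. The other 6 genes gave 1 to 5 UMIs each there. In monocyte-like cells Armc3 was at 10.3 CPM in Ctrl-2 and 29.1 CPM in Ctrl-3, Khdrbs3 at 18.3 and 9.68 CPM, and Tmem44, Zfp697 and Sema4b gave 5 UMIs or fewer in 163 cells. Poisson intervals cover counting error only. The 834 unnamed low-UMI cells of Ctrl, 711 of them from Ctrl-1, came from unlike clusters. Pooled, they had Csmd3 at 142 CPM (126 to 161), Khdrbs3 at 78.9 CPM (66.5 to 92.9), Bank1 at 60.8 CPM (50 to 73.2) and the other 4 genes at 18.6 to 24.1 CPM. In the cluster led by Cst7, Ttr and Spp1 the library means were 15 CPM for Csmd3 and 27 CPM for Bank1. In the one led by Gm26917, Gm42418 and Lars2 they were 426 and 155 CPM. Only 12 Ctrl cells were dividing microglia-like, and their 10 Khdrbs3 UMIs gave 105 CPM (50.3 to 193).

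Outside the clusters taken as myeloid, several members were high in single classes. Tmem44 in endothelial-like cells of Ctrl was at 35.2, 41.4 and 57.4 CPM, all above its level in microglia-like cells. Khdrbs3 was at 83.2 CPM in Ctrl-1 and 136 CPM in Ctrl-3 in mural-like cells (smooth muscle cells and pericytes), and at 113 CPM (69.7 to 172) in the 25 ependymal-like cells. Those ependymal-like cells also held Armc3 at 80.4 CPM (45 to 133). In the 30 astroglial-like cells of Ctrl, Csmd3 was at 101 CPM (56.5 to 166), Tmem44 at 53.8 CPM (23.2 to 106) and Sema4b at 47.1 CPM (18.9 to 97.1), from 15, 8 and 7 UMIs. Of the 15 Csmd3 UMIs, 14 came from the 21 cells of Ctrl-1. Astroglial-like cells of the 8 libraries used also held the 10 microglia markers, at a summed 5502 CPM. Whether these UMIs were of microglial RNA was not tested. Bank1 had 0 UMIs in the 78 mural-like cells, which allows up to 7.60 CPM by a limit of 3 UMIs.

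Counted by cells at equal depth, Csmd3 was seen in 1 of 4 microglia and the other members in fewer. Each cell was thinned to 2000 UMIs, and a share is the percent of such cells with a UMI of the gene. In microglia-like cells of Ctrl the share was 25.7% ± 3.21 for Csmd3 (SD, n = 3 libraries), 16.9% ± 0.463 for Khdrbs3, 15.4% ± 0.0433 for Bank1, 6.73% ± 1.49 for Zfp697, 6.62% ± 0.594 for Sema4b, 5.53% ± 0.942 for Armc3 and 5.50% ± 0.313 for Tmem44. Free RNA in the droplets can give a UMI to a cell that does not make the transcript. In endothelial-like cells of the same libraries the shares were 0.617% for Bank1, Zfp697 and Sema4b, 0.952% for Csmd3, 1.90% for Khdrbs3 and 0% for Armc3, all below the microglia-like ones, and 12.8% for Tmem44, above it. At full depth 54.7% ± 0.666 of Ctrl myeloid cells had a UMI of Csmd3, 43.0% ± 3.70 of Khdrbs3, 40.0% ± 3.23 of Bank1 and 16.8% to 20.6% of the other 4.

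After 14 days of PLX, all 7 transcripts stood at between 16.0% and 38.3% of their Ctrl mean in myeloid cells. No D0 library reached the lowest Ctrl library for any of them. The choice of the genes favours such a gap, and the share of all genes that show it was not counted. All 7 were called lower by edgeR, in a comparison where 8.20% of the 12834 genes tested were called lower and 12.1% higher. Since these falls chose the genes, no p is given for them.

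Bank1 was the most reduced. It was at 80.3, 80.1 and 82.6 CPM in Ctrl, at 7.64, 9.41 and 21.8 CPM in D0, at 8.41 and 4.64 CPM in D2 and at 9.45 CPM in D2-3. D0-3 was the highest treated library, and no treated library came near Ctrl. The log2 fold was -2.45 (SE 0.37) in D0 and -3.51 (SE 0.46) in D2. Without D0-3 the D0 value was -3.03.

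Sema4b, the semaphorin ligand, was at 28.7, 31.9 and 33.9 CPM in Ctrl, at 7.21, 6.54 and 9.05 CPM in D0 and at 6.58 and 6.03 CPM in D2. D2-3 had 2.31 CPM. The treated libraries lay close together, with log2 folds of -1.86 (SE 0.16) in D0 and -2.21 (SE 0.19) in D2.

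Tmem44 was at 26.0, 29.3 and 24.7 CPM in Ctrl, at 4.71, 5.65 and 9.60 CPM in D0 and at 3.62 and 4.92 CPM in D2, with D2-3 at 0.420 CPM from 6 UMIs. Zfp697 was at 26.2, 38.8 and 37.9 CPM in Ctrl, at 9.80, 6.34 and 11 CPM in D0 and at 8.41 and 5.68 CPM in D2, with D2-3 at 0.770 CPM from 11 UMIs. For both genes D0-3 was the highest D0 library and D2-3 the lowest of all. The log2 folds were -1.80 (SE 0.26) in D0 and -2.54 (SE 0.32) in D2 for Tmem44, and -1.74 (SE 0.25) and -2.17 (SE 0.30) for Zfp697.

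Armc3 was at 22.7, 28.7 and 28.9 CPM in Ctrl, at 7.64, 7.72 and 10.5 CPM in D0 and at 4.47 and 3.81 CPM in D2. D2-3 had 9.03 CPM and lay among the D0 libraries. The log2 folds were -1.44 (SE 0.18) and -2.58 (SE 0.23), and with D2-3 in the fit the D2 value was -1.99.

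Csmd3 kept the highest level of the 7 under PLX. It was at 162, 123 and 131 CPM in Ctrl, at 53.3, 49.6 and 56.9 CPM in D0, at 36.2 and 36.4 CPM in D2 and at 1.82 CPM in D2-3, where 26 UMIs were left. Its log2 folds were the smallest of the 7, at -1.18 (SE 0.11) in D0 and -1.82 (SE 0.14) in D2, and -2.35 in D2 with D2-3 in the fit. Khdrbs3 was at 91.9, 93.9 and 88.4 CPM in Ctrl, at 21.9, 26.6 and 50.8 CPM in D0, at 19.4 and 14.9 CPM in D2 and at 21.6 CPM in D2-3. As for Bank1, D0-3 was the high library, and the log2 fold in D0 was -1.26 (SE 0.28), or -1.71 without D0-3. In D2 it was -2.30 (SE 0.34).

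**Figure D2:**
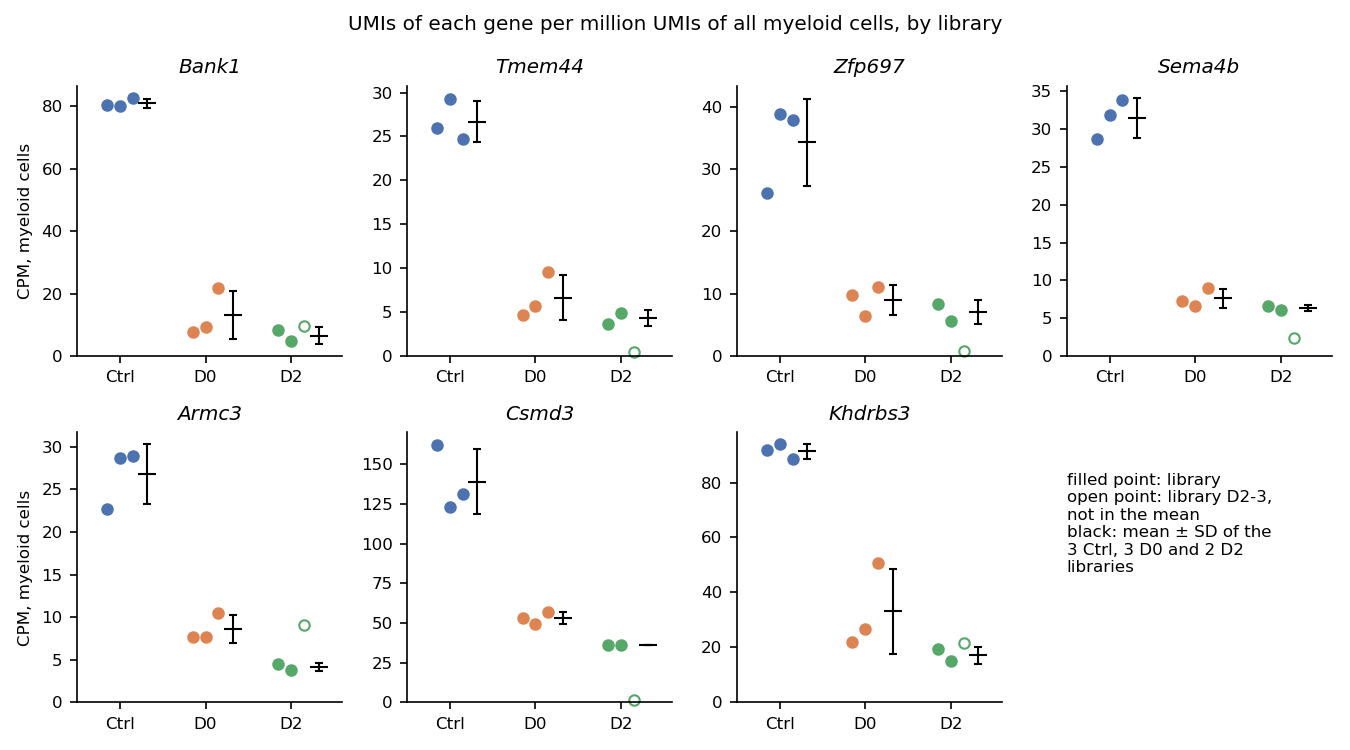
Level of each gene in CPM over all myeloid cells of a library (y axis), with the 3 Ctrl, 3 D0 and 3 D2 libraries as points and the mean ± SD in black. Every treated library lies below every Ctrl library, which the choice of the genes favours. D0-3 is the highest D0 library for all 7 genes. The open point D2-3 is near 0 for Csmd3 (1.82 CPM), Tmem44 (0.420 CPM) and Zfp697 (0.770 CPM).

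Ranked by log2 fold in D0 among the 621 genes called lower with at least 20 CPM in Ctrl, Bank1 was at rank 2, after Pf4, a marker of border-associated macrophages. Sema4b, Tmem44 and Zfp697 followed at ranks 3, 4 and 5, Armc3 was at rank 14, Khdrbs3 at rank 21 and Csmd3 at rank 31. The genes just outside, at ranks 32 and 33, were Whrn (-1.18) and Dusp6 (-1.16). In D2, 7.56% of genes were called lower and 9.86% higher, all 7 members were among the lower ones, and Bank1 was again at rank 2 with Armc3 and Tmem44 at ranks 4 and 5.

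The file headers name Cell Ranger 3.0.2 for Ctrl-1 and all the D0 libraries, and 3.1.0 for Ctrl-2 and Ctrl-3. Against Ctrl-1 alone, the mean of D0 was 16.2% for Bank1, 25.6% for Tmem44, 26.5% for Sema4b, 32.9% for Csmd3, 34.5% for Zfp697, 36.0% for Khdrbs3 and 38.0% for Armc3, with 1 Ctrl library and so no spread.

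**Figure D3:**
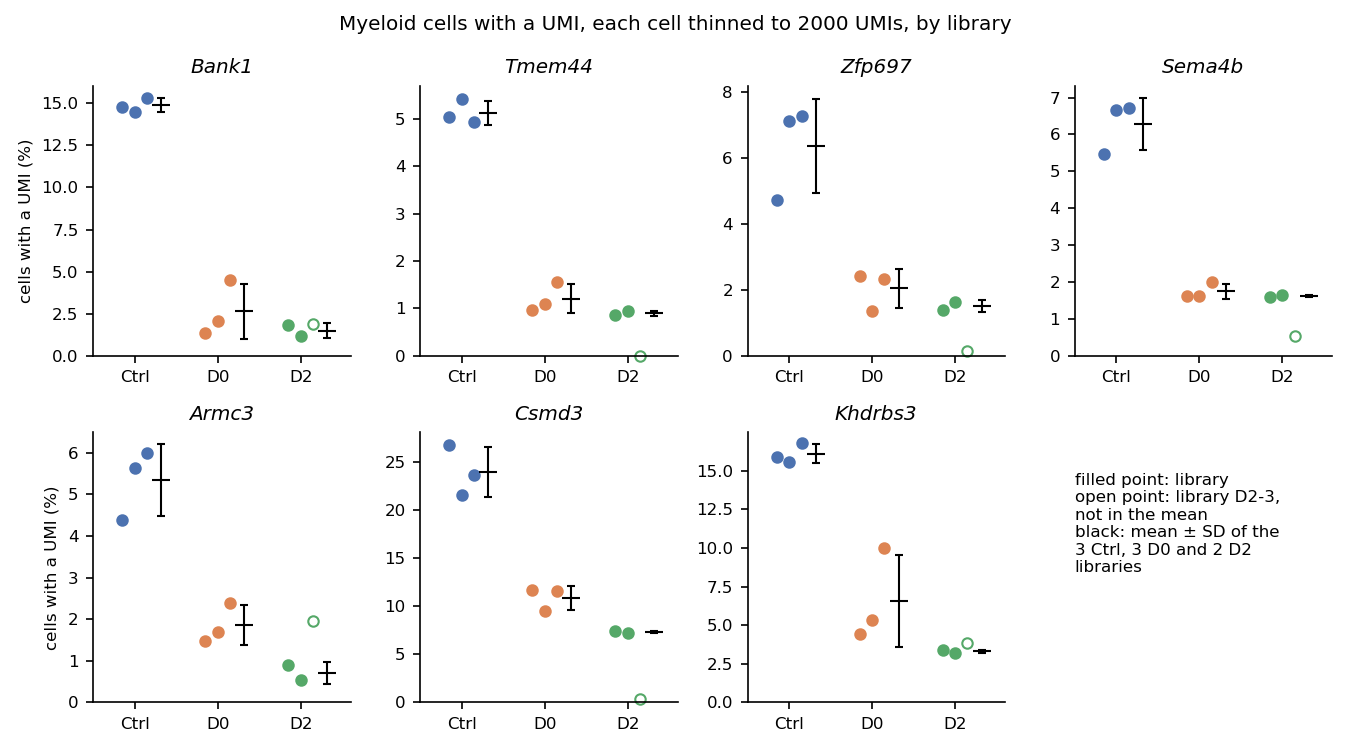
Percent of myeloid cells with a UMI of each gene after each cell was thinned to 2000 UMIs (y axis), by library, with the mean ± SD in black. The shares of Bank1 go from 14.5% to 15.3% in Ctrl to 1.37% to 4.49% in D0. For every gene all D0 points are below all Ctrl points, which the choice of the genes favours.

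At equal depth, fewer treated cells carried each transcript. The share of myeloid cells with a Bank1 UMI was 14.8%, 14.5% and 15.3% in Ctrl, 1.37%, 2.05% and 4.49% in D0, 1.83% and 1.18% in D2 and 1.88% in D2-3. For Csmd3 it was 26.8%, 21.6% and 23.7% in Ctrl, 11.7%, 9.54% and 11.6% in D0, 7.41% and 7.23% in D2 and 0.391% in D2-3. For Khdrbs3 the mean Ctrl share of 16.1% compared with 6.56% under PLX (D0) and 3.31% in D2. The mean shares of Tmem44, Zfp697, Sema4b and Armc3 were 5.13%, 6.38%, 6.28% and 5.34% in Ctrl, 1.21%, 2.05%, 1.75% and 1.85% in D0, and 0.902%, 1.52%, 1.62% and 0.713% in D2. Bank1 in D0 microglia-like cells had a mean share of 2.94%, from 1.42%, 2.29% and 5.12% in D0-1, D0-2 and D0-3. Its D0 share was 0.646% ± 0.592 in endothelial-like cells (4 UMIs in 422 cells) and 1.06% ± 0.983 in neutrophil-like cells. In CPM its D0 mean was 12.1 in neutrophil-like cells, against 14.2 in microglia-like cells. The part of free RNA in these values was not tested.

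Cells with several of the transcripts became rare, which lower shares of the single genes bring with them. Whether the genes were lost together beyond that was not tested. At 2000 UMIs a Ctrl myeloid cell had a UMI of 0.766 to 0.807 of the 7 genes on average, a D0 cell of 0.227 to 0.343 and a D2 cell of 0.164 to 0.174. No member was seen in 42.5% to 45.9% of Ctrl cells, in 70.6% to 79.9% of D0 cells and in 84.0% to 84.8% of D2 cells, while D2-3 had none in 91.5%. At least 3 members were seen together in 3.31% to 3.72% of Ctrl cells and in 0.146% to 0.399% of D0 cells. Cells under 2000 UMIs were left out, between 3.19% and 16.2% of the myeloid cells of a library.

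The sums of cell type markers over the myeloid cells moved as well. Such a sum follows the level of a marker within cells as well as the number of cells, so that it does not measure make-up alone. The study reported that P2ry12, P2ry13, Tmem119 and Cx3cr1, all of them microglia markers used here, were lower after PLX within each of its clusters. The 10 microglia markers, none of them at 0 in any library, summed to 24027 to 27940 CPM in Ctrl, 16128 to 17572 CPM in D0 and 13443 to 14029 CPM in D2-1 and D2-2. The 8 border-associated macrophage markers summed to 339 to 437 CPM in Ctrl and 136 to 177 CPM in D0, D2-1 and D2-2, and 1 of them was at 0 in D0-1, D2-1 and D2-2. The 9 monocyte markers summed to 65.8 to 255 CPM in Ctrl, 136 to 356 CPM in D0 and 163 to 476 CPM in D2-1 and D2-2, with 2388 CPM in D2-3, and the 8 markers of dividing cells to 9.57 to 20.4 CPM in Ctrl and 501 to 745 CPM in D0, D2-1 and D2-2. The monocyte ranges of Ctrl and D0 overlap. The 9 neutrophil markers summed to 7.05 to 18.3 CPM in Ctrl and 59.3 to 459 CPM in D0, the 8 dendritic cell markers to 51.7 to 54.2 and 76.9 to 128 CPM, the 6 astroglial markers to 159 to 172 and 74.6 to 98.4 CPM and the 6 endothelial markers to 29.2 to 36.0 and 12 to 19.5 CPM. Their part in the members' levels was not tested. The members were also lower in the microglia-like cells alone, without the dividing ones. There Bank1 had 83.0 ± 0.513 CPM in Ctrl (SD, n = 3), with 14.2 ± 9.55 CPM in D0 (n = 3) and 7.29 ± 3.80 CPM in D2 (n = 2), and Csmd3 at 147 ± 21.8, 62.4 ± 5.96 and 42.0 ± 3.32 CPM. Tmem44 went from 28.0 to 7.85 and 4.94 CPM, Zfp697 from 36.4 to 10.7 and 8.51 CPM, Sema4b from 32.7 to 7.94 and 6.94 CPM, Armc3 from 28.0 to 9.18 and 4.56 CPM and Khdrbs3 from 96.4 to 36.0 and 18.5 CPM.

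The members were lower within single clusters of myeloid cells too. Clusters were compared where at least 20 cells were found in 2 or more libraries of both groups. The mean of D0 was below that of Ctrl in 93 of 98 pairs of gene and cluster, and the mean of D2 in 61 of 63. The genes were chosen by low levels in these same cells, and the pairs share libraries, so that these counts are a description. The share of all genes that were lower in these clusters was not counted. Bank1 was lower in all 14 clusters compared in D0 and all 9 in D2. In the cluster led by P2ry13, Hes1 and Slc2a5 it was at 81.8 CPM in Ctrl and 18.9 CPM in D0. In the one led by Igf1, Arg1 and Spp1 it was at 27.8 CPM in Ctrl and 14.4 CPM in D0. There the libraries overlapped, from 16.8 to 33.6 CPM in Ctrl (158 cells) and from 8.56 to 24.8 CPM in D0. Bank1 of the border-associated macrophage-like cells was at 83.0 CPM in Ctrl and 6.81 CPM in D0-1, the D0 library with 20 or more of them. Csmd3 was nearest to its Ctrl level in the cluster led by Fosb, Jun and Gadd45g, at 170 CPM in Ctrl and 162 CPM in D0. That D0 value rests on 75 cells, with libraries from 129 to 205 CPM. The 5 pairs not lower in D0 were 2 of Armc3 and 1 each of Tmem44, Sema4b and Csmd3. The clusters were drawn without the 7 genes, but other genes that differ between the groups took part in drawing them.

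**Figure D4:**
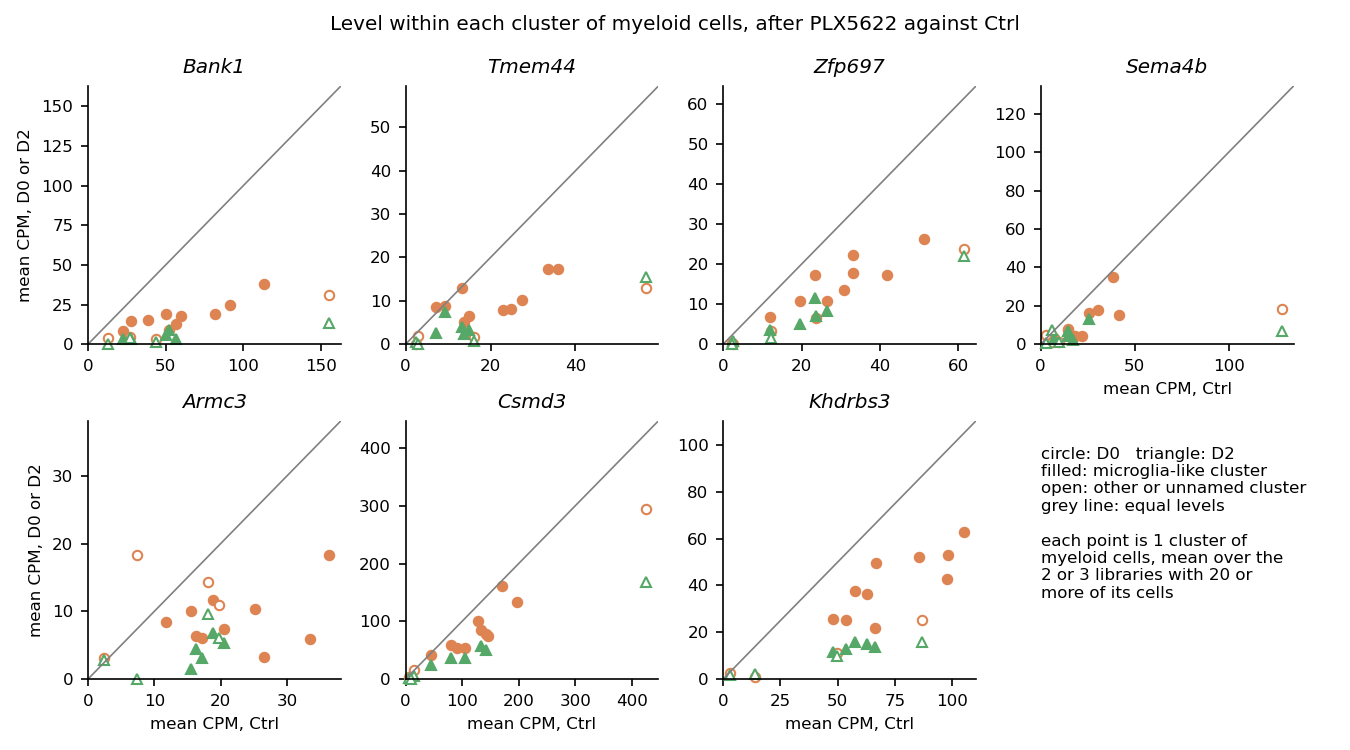
Mean CPM of each gene in a cluster of myeloid cells in D0 or D2 (y axis) against the same cluster in Ctrl (x axis), over the libraries with at least 20 of its cells, the grey line marking equal levels. Nearly all points lie under the line, 93 of 98 for D0 and 61 of 63 for D2, which the choice of the genes favours.

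Ctrl myeloid cells were themselves uneven in the 7 genes. Among the Ctrl cells, the cluster led by Bank1, Csmd3 and Myo18b had 113 CPM of Bank1, 198 of Csmd3, 51.3 of Zfp697 and 41.8 of Sema4b. A cluster is named here by its most raised genes, so that high Bank1 and Csmd3 in it follow from the naming. The Igf1, Arg1 and Spp1 cluster had 27.8, 80.0, 19.7 and 14.5 CPM. It held only 158 Ctrl cells, and its Csmd3 ranged from 37 to 116 CPM between libraries. Armc3 was at 25.1 and 18.8 CPM in these clusters and Khdrbs3 at 98.1 and 62.7 CPM, and both were higher still in the P2ry13, Hes1 and Slc2a5 cluster (33.5 and 105 CPM). An unnamed cluster of low UMI counts, led by Gm26917, Gm42418 and Lars2, had the highest Csmd3 (426 CPM) and Bank1 (155 CPM) of any Ctrl cluster. Sema4b (128 CPM), Zfp697 (61.4 CPM) and Tmem44 (56.7 CPM) were also highest there, but not Armc3 (7.38 CPM) or Khdrbs3 (49.7 CPM). Between its Ctrl libraries Csmd3 ranged from 308 to 548 CPM and Bank1 from 90.4 to 250 CPM. Sema4b ranged from 49.1 to 181 CPM, Zfp697 from 30.1 to 96.2 CPM and Tmem44 from 15.1 to 77.9 CPM.

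In cell classes outside the myeloid clusters, some members were lower after PLX and others were not. Tmem44 of endothelial-like and Khdrbs3 of mural-like cells had overlapping levels in Ctrl and treated libraries. Tmem44 in endothelial-like cells was at 35.2, 41.4 and 57.4 CPM in Ctrl, 53.6, 51.7 and 39.3 CPM in D0, 28.8 and 44.4 CPM in D2 and 35.3 CPM in D2-3, the groups overlapping throughout. Khdrbs3 in mural-like cells was at 109 CPM in Ctrl (95% Poisson interval 78.8 to 147, 43 UMIs), 90.3 CPM in D0 (68.2 to 117, 56 UMIs) and 118 CPM in D2 (88.3 to 155, 52 UMIs), pooled over libraries. Armc3 in neutrophil-like cells was at 22.5 and 24.8 CPM in Ctrl-2 and Ctrl-3, 28.3, 19.7 and 26.8 CPM in D0 and 14.3 and 10.2 CPM in D2. The other members of note in neutrophil-like cells were lower when pooled over libraries. Khdrbs3 was at 30.4 CPM in Ctrl (18.6 to 46.9), 3.73 CPM in D0 (2.13 to 6.06) and 1.43 CPM in D2 (0.173 to 5.17). Its 2 Ctrl libraries with 20 or more such cells were far apart, with a mean of 25 CPM and a larger SD of 35.3. In the same cells Csmd3 had 31.9, 6.07 and 2.86 CPM and Bank1 24.3, 8.87 and 11.4 CPM. Neutrophil-like cells of the 8 libraries used also held the 10 microglia markers, at a summed 1999 CPM. The part of free RNA in these levels was not tested. In astroglial-like cells Csmd3 had 101 CPM in Ctrl, 13.6 CPM (5.88 to 26.8) in D0 and 22.7 CPM (6.18 to 58.1) in D2. Of its 15 Ctrl UMIs there, 14 came from Ctrl-1. Tmem44 had 53.8, 117 and 90.7 CPM in these cells and Sema4b 47.1, 85.1 and 62.4 CPM, with 65 of the 94 D0 cells from D0-3. Khdrbs3 in endothelial-like cells was lower, at 25.8 ± 11.8 CPM in Ctrl (n = 3), 9.79 ± 1.71 in D0 (n = 3) and 7.08 ± 0.709 in D2 (n = 2). Whether the difference between myeloid and other cells exceeds their spread was not tested.

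After 2 days without PLX none of the 7 genes was higher than under the drug. All 7 were lower in D2 than in D0 by the fitted log2 fold, by -0.35 to -1.14, but edgeR's quasi-likelihood test called none of them, nor any other gene (0% called lower and 0% higher of 12834 genes, smallest adjusted p = 0.34), with 754 genes and 5 of the members at an unadjusted p under 0.05. DESeq2 called 30 of 12829 genes, Armc3 (adjusted p = 0.00727) and Csmd3 (adjusted p = 0.0153) among them. These libraries took part in the choice of the genes. So far as low levels in D2 entered that choice, it favours folds below 0 here. The intervals and p-values of the members are therefore to be read as a description. Armc3 differed by -1.14 (95% interval -1.64 to -0.64, adjusted p = 0.642 with edgeR), its values in D2-1 and D2-2 (4.47 and 3.81 CPM) lying below all 3 of D0, while D2-3 (9.03 CPM) lay among them. Csmd3 differed by -0.64 (-0.93 to -0.34, adjusted p = 0.684 with edgeR). The D2-1 and D2-2 values of Csmd3, and those of Khdrbs3 (19.4 and 14.9 CPM), also lay below all D0 values. The share of all genes with such a gap between so few libraries was not counted. Bank1 differed by -1.06 (-2.04 to -0.08), Khdrbs3 by -1.04 (-1.77 to -0.30), Tmem44 by -0.74 (-1.45 to -0.02), Zfp697 by -0.43 (-1.08 to 0.22) and Sema4b by -0.35 (-0.76 to 0.06), with adjusted p from 0.783 to 0.787. Without D0-3 the values of Bank1 and Khdrbs3 were -0.47 and -0.60.

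**Figure D5:**
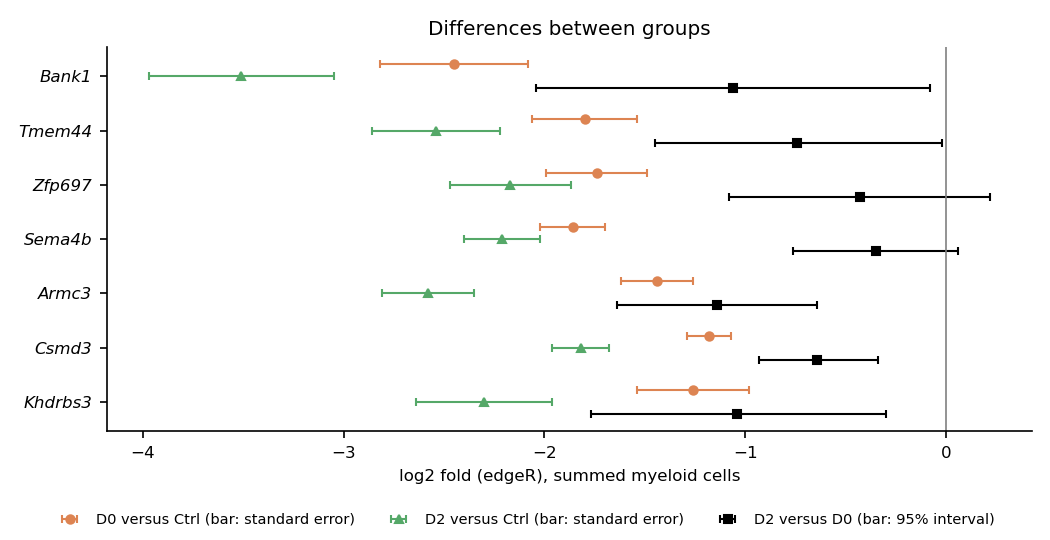
Log2 folds of the 7 genes (y axis) between groups in summed myeloid cells (x axis), with standard errors for D0 and D2 against Ctrl and 95% intervals for D2 against D0. The folds against Ctrl, which chose the genes, run from -1.18 to -3.51, and those of D2 against D0 from -0.35 to -1.14. The intervals are not adjusted for the number of genes, leave out D2-3 and cross 0 for Zfp697 and Sema4b. The D0 and D2 libraries also took part in the choice, which can favour folds below 0 between them. In D2 against D0 edgeR called none of the 7 (adjusted p = 0.642 to 0.787).

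Relatives of the members came in 5 lists. These were BANK1 partners and a like adaptor, class 4 semaphorins and their receptors, CUB and sushi domain proteins, STAR proteins and other Armc genes. Of their 46 genes, 33 were tested. In D0, 3 were called higher and 5 lower, and the median log2 fold was -0.15, against -0.06 over all genes tested, of which 12.1% were called higher and 8.20% lower. In D2, 3 were called higher and 4 lower, with a median of -0.15 against -0.02, where 9.86% of all genes were called higher and 7.56% lower. The counts of the single lists are small and are to be read against these shares.

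Among the 13 tested genes of the BANK1 list, 2 were called lower in D0, where 8.20% of all genes were. They were Itpr3 (-0.87, adjusted p = 0.0400) and Plcg2 (-0.31, adjusted p = 0.0498), a calcium channel of the endoplasmic reticulum and a phospholipase that feeds it. Neither was called without Ctrl-3 or without D0-2. The kinase gene Lyn, at 465 CPM in Ctrl, differed by -0.19 (SE 0.10, adjusted p = 0.192), the adaptor gene Blnk, at 183 CPM, by 0.08 (SE 0.16, adjusted p = 0.762) and the channel gene Itpr2, at 161 CPM, by -0.44 (SE 0.16, adjusted p = 0.0806).

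Among 9 tested semaphorins and receptors, 3 rose in D0. Cd72, a receptor of class 4 semaphorins known from B cells, was at 14.6, 10.6 and 10.8 CPM in Ctrl and 66.9, 41.8 and 56.9 CPM in D0, a log2 fold of 2.39 (SE 0.18, adjusted p = 4.72e-05). Plxnd1 rose by 1.96 (SE 0.35, adjusted p = 0.00611) from about 1 CPM, and Sema4a by 1.08 (SE 0.23, adjusted p = 0.0121) from 5.82 CPM. Sema4c fell by 0.46 on the log2 scale (adjusted p = 0.0488). Sema4d, the most abundant semaphorin of the list at 113 CPM in Ctrl, differed by -0.15 (SE 0.11, adjusted p = 0.344), and the plexin gene Plxnb2, at 209 CPM, by -0.09 (SE 0.10, adjusted p = 0.592). The class thus held members in both directions. Of the 8 calls over all 5 lists, 3 were made without Ctrl-2, 2 without Ctrl-3, 2 without D0-2 and 5 without D0-3, and Cd72 and Plxnd1 were called in each of the 8 fits that left out 1 library.

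Of the STAR genes, Khdrbs1 was at 121 CPM in Ctrl and differed by 0.08 in D0 (SE 0.09, adjusted p = 0.565), and Qk, at 1060 CPM, by -0.34 (SE 0.12, adjusted p = 0.0829), while Khdrbs2 was too low to test. Of the CUB and sushi domain genes only Sez6l2 was tested (0.33, SE 0.59, adjusted p = 0.722), Csmd1 and Csmd2 being at under 0.1 CPM in Ctrl. Of 7 tested Armc genes, Armc7 (-0.78, adjusted p = 0.0240) and Armc8 (-0.51, adjusted p = 0.0279) fell and 5 were not called.

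The genes whose levels ran most like each member were sought among 5970 genes over 51 sums of cells, each of 1 class and 1 library, 11 classes in all. The sums share libraries and depth and span Ctrl, D0 and D2. Pearson's r therefore also reflects the falls that chose the members, and is a description. Csmd3 had the closest companions, Nav3 (r = 0.965), Upk1b (0.957) and Crybb1 (0.944). Bank1 ran with Ebf3 (0.819), Gcnt1 (0.813) and Med12l (0.811), and Sema4b with Oaf (0.790), Ralgps1 (0.788) and Etv5 (0.788). Tmem44, which is high in endothelial-like cells, ran with S1pr1 (0.892), Plcg1 (0.881) and Pttg1ip (0.845). Zfp697 ran with Lrba (0.882), Cables1 (0.878) and Snn (0.849), Khdrbs3 with Arvcf (0.881), Klhdc8b (0.864) and Sox4 (0.846), and Armc3 with Cd82 (0.793), Ggt5 (0.718) and Bid (0.665).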

How the data were processed

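The deposited files hold counts, whole UMIs per gene and cell, which the authors made with Cell Ranger on mm10. The file headers name version 3.0.2 or 3.1.0 and the submitters' processing notes 3.1.0. The 7 genes, the marker lists and the lists of relatives were chosen with earlier results of these data known. A cell was used if it held 500 to 20000 UMIs and 200 genes or more, with mitochondrial transcripts making up no more than 10%. Cells were clustered without the 7 genes (scanpy 1.11.5, Leiden resolution 0.6). A cluster was named for a cell type other than microglia from at least 3 raised markers of that type. Where no such type qualified, it was named microglia-like if at least 3 microglia markers reached 100 CPM, raised or not. A cluster of low UMI counts with no marker of its type among its top genes was then left unnamed. The unnamed myeloid clusters had median UMIs of 0.321 and 0.148 times the library median. They held 9 and 10 microglia markers at 100 CPM. The doublet caller Scrublet flagged only 0.161% (46 of the 28655 cells) and was judged not to have worked. Doublets were therefore left in, and dropping the highest 4% of scores was an alternative. UMIs were summed per library and tested with edgeR 4.0.16 (quasi-likelihood, TMM scaling, two-sided, Benjamini-Hochberg adjustment, threshold 0.05) over Ctrl, D0 and D2 without D2-3. DESeq2 1.42.0 was an alternative. The library was the replicate. Between groups, p-values measure the spread between libraries, which held 1 mouse in Ctrl and 2 pooled brains in D0 and D2. Between classes of Ctrl the library was a block, so that p-values measure how far the class difference varied between libraries. The test was tried on simulated data.

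The 7 members were described in every library and class. Of the relatives, called genes with the largest log2 folds (at most 3 a list) and those over 100 CPM in Ctrl were named, and for each member the 3 genes with the highest Pearson r of log2(CPM + 10) over sums of at least 50 cells, among genes of at least 20 CPM in Ctrl myeloid cells. A limit for a count of 0 is 3 UMIs. Positions are from GENCODE vM21 and upstream sequences from RefSeq. The result of a further marker list is not reported here.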

Additional observations from a re-analysis of the deposited data

How the results depend on the processing

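The log2 folds of the 7 genes stayed below 0 in all 140 values that 20 alternatives gave for D0 against Ctrl. The same held in all 140 for D2 against Ctrl and in all 140 for D2 against D0. The genes were chosen by their falls in these libraries, so that these signs are a description and no test. Against Ctrl, 10 values in D0 and 12 in D2 moved by at least the SD between libraries of a group. For Zfp697 in D0 the log2 fold was -1.30 with the Cell Ranger version in the fit, against -1.74 in the main fit. For D2 against D0, edgeR called 0 members in the main fit, 0 to 0 with 1 library left out and 0 with the replicate block, and DESeq2 called 2. Of the relatives, 8 were called in D0, and 2 to 7 with 1 library left out, 2 with D2-3 included, 2 when the Cell Ranger version entered the fit, 3 in cells thinned to 2000 UMIs and 4 in microglia-like cells that were not dividing. Cd72 was called higher in each of these. With the replicate block 11 were called. Libraries with the same number in different groups correlated by 0.00436 to 0.414 in their deviations from the group means. Those with different numbers correlated by -0.306 to 0.217. The labels do not say whether libraries of the same number were handled together, and the main fit did not pair them. Of the members called lower in border-associated macrophage-like cells, 5 in the main fit, there were 3 with DESeq2, 2 with no replicate block, 3 in thinned cells and 3 to 5 with 1 library left out, and Csmd3 and Khdrbs3 were called in each. The causes were not tested. Tmem44, Zfp697, Sema4b and Armc3 rest on under 10 CPM in most treated libraries, which limits what can be seen within clusters.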
